A study of Homo sapiens with 6 samples.

Results

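The mitochondrial ribosomal protein genes encode, from the nucleus, the proteins of the ribosome that works inside mitochondria. They were taken as every row of the deposited gene table named MRPL or MRPS with a number (and a final A, B or C where there is one), plus DAP3, each name once. This gave 79 genes of 62700 rows. All 79 passed the filter on low counts, and the smallest count of any of them in any library was 1992 (MRPL1). The samples were 6 RNA libraries of A673, a cell line grown from a human Ewing sarcoma. The parental group (3 libraries) carried the EWS-FLI1 fusion gene, and the other group (3 libraries) was labelled EWS-FLI1 knockout. Both were grown in DMEM with serum, and no other allele, agent or time is given. EWS-FLI1 joins the RNA-binding protein EWSR1 to the DNA-binding part of the ETS factor FLI1. The labels do not say how the knockout was made, whether it is 1 clone or a pool, or whether replicates were separate cultures. A difference between clones therefore cannot be told apart from loss of the fusion, and the p-values reflect library-to-library spread only, possibly technical.

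The mitochondrial ribosome translates the few proteins encoded by mitochondrial DNA, all of them core parts of the respiratory chain and ATP synthase. Its small subunit reads the messenger RNA, its large subunit joins amino acids and feeds the new chain into the inner membrane, and its RNA comes from mitochondrial DNA while its proteins are imported from the cytosol. Many of these proteins have a counterpart in bacterial ribosomes, and the others were added in the mitochondrial lineage. The promoters of nuclear genes for mitochondrial proteins are known for sites of NRF1 and of ETS factors such as GABPA.

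Before the levels, the promoters of the genes at both ends of the response are shown with the known sites they hold. RefSeq (GRCh38.p14) gave a promoter for 70 of the 79 genes, and the 250 bases before the listed start were searched on both strands. The genes shown are the 3 with the lowest and the 3 with the highest log2 fold change among those with an entry. Only bases outside all genes annotated in GENCODE 29 are printed, 5′ to 3′ on the gene's own strand, with matches to NRF1 (GCGCANGCG), the ETS consensus (CCGGAAG) and the E-box (CACGTG) in capitals. The first 3 genes (MRPL22 at chr5:154940823-154941069 and MRPL45 at chr17:38296918-38297022, both on the plus strand, and MRPL57 at chr13:21176603-21176644, plus strand) were lower in the knockout. The last 3 (MRPL14 at chr6:44127458-44127558 and MRPL17 at chr11:6683402-6683590, both minus strand, and MRPL33 at chr2:27771469-27771716, plus strand) were higher.
MRPL22: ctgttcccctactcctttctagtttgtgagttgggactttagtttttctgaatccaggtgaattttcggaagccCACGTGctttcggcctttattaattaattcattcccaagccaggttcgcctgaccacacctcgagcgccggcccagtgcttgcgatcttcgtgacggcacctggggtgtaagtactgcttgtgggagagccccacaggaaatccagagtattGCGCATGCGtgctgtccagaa
MRPL45: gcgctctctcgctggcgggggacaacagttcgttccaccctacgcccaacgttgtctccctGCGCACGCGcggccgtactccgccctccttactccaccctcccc
MRPL57: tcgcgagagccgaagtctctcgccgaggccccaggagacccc
MRPL14: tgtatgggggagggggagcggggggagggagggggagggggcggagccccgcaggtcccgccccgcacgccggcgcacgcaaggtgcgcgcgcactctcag
MRPL17: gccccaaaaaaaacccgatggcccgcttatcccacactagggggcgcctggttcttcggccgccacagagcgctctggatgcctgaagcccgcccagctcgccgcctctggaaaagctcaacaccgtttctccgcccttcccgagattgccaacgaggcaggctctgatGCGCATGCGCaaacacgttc
MRPL33: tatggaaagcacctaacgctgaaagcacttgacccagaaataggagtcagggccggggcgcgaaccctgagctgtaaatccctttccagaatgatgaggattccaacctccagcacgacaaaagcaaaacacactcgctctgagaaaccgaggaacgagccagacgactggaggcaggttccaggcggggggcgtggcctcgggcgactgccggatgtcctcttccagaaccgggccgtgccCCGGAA

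NRF1 matches stood in promoters of both directions: at 24 bases before the start in MRPL22, 189 in MRPL45, 74 in MRPL57 and 123 in MRPL14, and at 81, 80 and 43 in MRPL17, counted to the match's first base. The matches at 81 and 80 in MRPL17 are the same stretch matched on each strand, since its capital letters read alike on both strands. The matches of MRPL57, MRPL14 and the one at 43 in MRPL17 lie in bases that are not printed, as does the E-box of MRPL45 at 133. MRPL33 had an ETS match at 8 bases, whose last letter is not printed, and MRPL22 had an E-box at 176. Over the 70 promoters, 13 (18.6%) held the NRF1 letters, against 10.6% of the 15218 promoters of all tested genes. The ETS letters were in 23 (32.9%, against 12.9%), the YY1 letters AAGATGGC in 5 (7.14%, against 1.64%) and the E-box in 6 (8.57%, against 8.12%). The TATA box TATAAA was in 2 (2.86%, against 6.99%). By call, NRF1 matches were in 9 of the 57 promoters of lower genes, in 4 of 5 of higher genes and in 0 of 8 of genes that did not pass. ETS matches were in 18 of 57, 2 of 5 and 3 of 8. The tetranucleotide GGAA 3 times in a row is a short form of the repeats that EWS-FLI1 is known to bind. It was in none of the 70 and in 8 (0.0526%) of the 15218. That is too rare for its absence from 70 promoters to tell the sets apart. Median GC content was 61.0% in these promoters and 63.6% in all. A match is a run of letters and not a shown binding site, and no binding was measured here.

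Levels below are library-scaled counts (CPM) after TMM normalisation, which balances libraries on the bulk of genes, and log2 fold changes compare knockout with parental, each with a standard error (SE) from edgeR's quasi-likelihood fit over 28485 genes. A gene was called where the Benjamini-Hochberg adjusted p was under 0.05. Libraries held 301605666 to 342624492 estimated counts, so 3 counts correspond to 0.00752 to 0.0117 CPM, far below any of these genes. EWSR1 ranged from 288.2 to 300.0 CPM in parental and 240.6 to 252.0 in knockout libraries and FLI1 from 39.6 to 41.9 and from 50.8 to 54.8, but a count per gene adds fusion and normal transcripts and checks neither label. Of 11 markers of Ewing sarcoma, all 11 were lower and none was at 0: their summed CPM was 3730 to 3790 in parental and 775 to 825 in knockout libraries. Of 12 markers of blood, epithelium, endothelium, liver, muscle and glia, 7 were tested, 5 of them higher and 1 lower. Their summed CPM was 11.8 to 13.3 and 238 to 261, in the knockout mostly KRT18; 7 of the 12 stayed under 1 CPM in every library, and none was at 0 in all libraries. The part of these shifts in the results below was not tested. In bulk RNA, fewer cells of a type and less RNA per cell cannot be told apart.

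Most of the set was lower in the knockout. Of the 79 genes 62 fell (78.5%), 7 rose (8.86%) and 10 did not pass, where over all tested genes 37.5% fell and 36.3% rose (73.8% called in all). The median log2 fold change was -0.59 with quartiles of -0.82 and -0.25, beside -0.056 for all tested genes. The groups did not overlap for 72 genes (91.1%, against 76.7% of all tested genes). Shifts were mostly modest: 11 genes (13.9%) fell below -1, where 20.3% of all tested genes did, and no gene rose above 1. Among genes of at least 10 CPM on average, 40.6% of all 10240 fell and 47.3% rose, and 62 of 78 members fell (79.5%). The summed share of the set was 0.45%, 0.45% and 0.441% of the counts in parental libraries and 0.221%, 0.225% and 0.222% in knockout libraries, with no overlap. This share is over all counts and without TMM scaling.

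**Figure D1:**
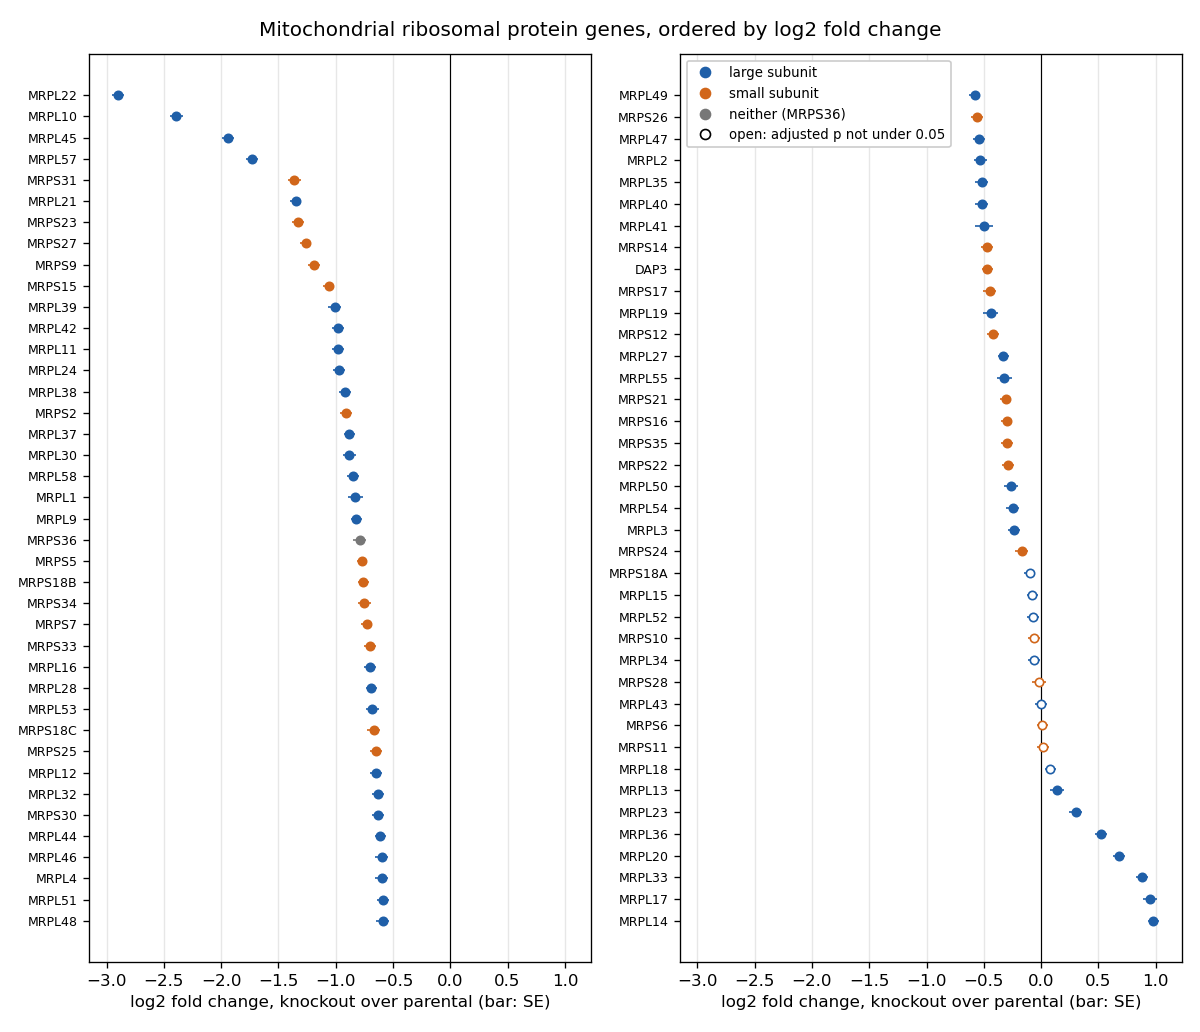
Log2 fold change (knockout over parental, horizontal axis) of the 79 genes from lowest to highest, with SE bars; colour gives the subunit and open circles did not pass. The points run from -2.90 for MRPL22 to 0.98 for MRPL14, and all 7 filled points above 0 are large subunit genes.

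The scaling sets part of this split. With total counts only, the median of all tested genes moved by -0.42 and 73 members were lower, 4 higher and 2 not called. With upper quartile factors it moved by -0.20 and the counts were 72, 5 and 2. Of all tested genes 52.5% were lower and 25.9% higher in the first of these fits, and 44.9% and 30.5% in the second. A change of scaling moves all genes by nearly the same amount. The median of the members was therefore bound to lie about equally far below that of all tested genes under all 4 scalings (a difference of -0.53). Of called members, 10.1% were higher in the TMM fit and 5.19% and 6.49% in these fits, and of all called genes 49.1%, 33.0% and 40.5%.

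Most genes of the small subunit fell. Of its 27 genes 23 were lower (85.2%), 0 were higher and 4 did not pass (median -0.56). Of all tested genes 37.5% were lower and 36.3% higher. The 11 classed as mitochondria-specific were all lower (median -0.70). Of the 16 classed as having a bacterial counterpart 12 were lower and 4 did not pass (median -0.43). This difference between the classes was not tested. The classes follow general knowledge of the ribosome's structure.

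MRPS31, a protein added in mitochondria, stood at 28.8, 31.2 and 29.7 CPM in the parental group and at 12, 11.8 and 11.3 CPM in the knockout group. It lies on chromosome 13 from 40729135 to 40771173 (GRCh38), and it fell (-1.36 on the log2 scale, SE 0.054, edgeR adjusted p = 6.86e-16). A row named MRPS31P5, by its symbol a pseudogene of MRPS31, held 29.6% as many counts, so reads shared by the pair may be split between them. MRPS23 stood at 85.7, 86.0 and 85.2 CPM in the parental group and at 34.5, 34.8 and 32.5 CPM in the knockout group (-1.33, SE 0.049). In both genes every knockout library lay below every parental one by far more than the spread.

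MRPS27, a pentatricopeptide repeat protein, which is a class of RNA-binding protein, stood at 83.5, 88.0 and 86.7 CPM in the parental group and at 36.7, 35.4 and 35.5 CPM in the knockout group (-1.26, SE 0.048). MRPS9 and MRPS15, both with bacterial counterparts, changed by -1.19 (SE 0.053) and -1.06 (SE 0.047). DAP3, a GTP-binding protein of the head of the small subunit that was first described in cell death, stood at 107.5, 109.9 and 106.3 CPM in the parental group and at 77.8, 79.7 and 76.1 CPM in the knockout group. Its change of -0.47 (SE 0.047, edgeR adjusted p = 7.14e-09) was smaller than the median of the set, and its groups did not overlap. MRPS24 was the weakest lower call (-0.17, SE 0.055, edgeR adjusted p = 0.00846); without parental replicate 1 it was -0.078 and did not pass (edgeR adjusted p = 0.0683).

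The small subunit genes that did not pass were MRPS10 (-0.064, SE 0.052), MRPS28 (-0.015, SE 0.061), MRPS6 (0.0092, SE 0.048) and MRPS11 (0.017, SE 0.050). MRPS6 stood at 43.4, 44.0 and 42.1 CPM in the parental group and at 43.3, 44.1 and 42.9 CPM in the knockout group, and the groups overlap fully. All 4 passed as lower with total counts only and also with upper quartile factors. Their place near 0 therefore holds for the TMM scaling and not for these.

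The large subunit held both the deepest falls and all the rises. Its 51 genes split into 38 lower, 7 higher and 6 not passed (median -0.59). That is 74.5% lower and 13.7% higher, against 37.5% and 36.3% of all tested genes. The 21 classed as mitochondria-specific split into 18 lower, 0 higher and 3 not passed (median -0.60). The 30 classed as having a bacterial counterpart split into 20, 7 and 3 (median -0.52). The summed CPM of large subunit genes over that of small subunit genes was 1.69, 1.69 and 1.67 in parental and 1.75, 1.73 and 1.70 in knockout libraries, so the groups did not overlap but differed by little.

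Some genes of the peptide exit and of the stalk were listed together, and the list may not hold every gene of these regions. Of its 7 genes 6 fell and 1 rose (median -0.98), where 37.5% of all tested genes fell and 36.3% rose. The count and median depend on this choice. MRPL22, whose protein lines the tunnel through which the new chain leaves, lies on chromosome 5 from 154941070 to 154969411 and fell furthest of the 79. It stood at 97.6, 100.9 and 95.1 CPM in the parental group and at 13.0, 13.3 and 13.0 CPM in the knockout group, which is 13.4% of the parental level (-2.90, SE 0.052, edgeR adjusted p = 2.06e-22). Of all tested genes 15.3% (4353) changed by more than this in either direction. MRPL45, which sits at the tunnel's exit beside the inner membrane, stood at 68.8, 74.0 and 70.3 CPM in the parental group and at 19.2, 18.6 and 17.7 CPM in the knockout group (-1.94, SE 0.053). MRPL24, beside the exit and named because it is in the list, changed by -0.97 (SE 0.053). MRPL23 rose by 0.30 (SE 0.058) with the TMM scaling and stood at -0.12 with total counts only.

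MRPL10, on chromosome 17 from 47823272 to 47831534, is the base of the stalk that recruits translation factors. It stood at 101.8, 96.4 and 97.2 CPM in the parental group and at 19.0, 19.7 and 17.8 CPM in the knockout group (-2.39, SE 0.053, edgeR adjusted p = 1.41e-20). Its neighbour in the stalk base, MRPL11, stood at 40.3, 39.1 and 38.3 CPM in the parental group and at 20.2, 20.2 and 19.2 CPM in the knockout group (-0.98, SE 0.051). MRPL12, the stalk protein that is also reported to bind the mitochondrial RNA polymerase, changed by -0.65 (SE 0.053). Of its annotated exonic bases 68.2% are shared with another gene on the same strand. That gene was given a mean of 55.5 counts a library, and MRPL12 at least 11114 in each. The 3 stalk genes thus fell to different extents, with MRPL10 the lowest.

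MRPL57, a small mitochondria-specific protein, stood at 73.3, 68.4 and 67.8 CPM in the parental group and at 21.6, 21.4 and 20.2 CPM in the knockout group (-1.73, SE 0.053). MRPL21, with a bacterial counterpart, changed by -1.35 (SE 0.050), and MRPL39 and MRPL42, both mitochondria-specific, by -1.01 (SE 0.053) and -0.98 (SE 0.056). Nearest the median of the set were MRPL51 (-0.59, SE 0.052), MRPL48 (-0.59, SE 0.055) and MRPL49 (-0.58, SE 0.049). MRPL48 stood at 18.8, 19.8 and 19.4 CPM in the parental group and at 13.4, 12.9 and 12.4 CPM in the knockout group, which shows the size of a typical fall: small, and clear of the spread between libraries.

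**Figure D2:**
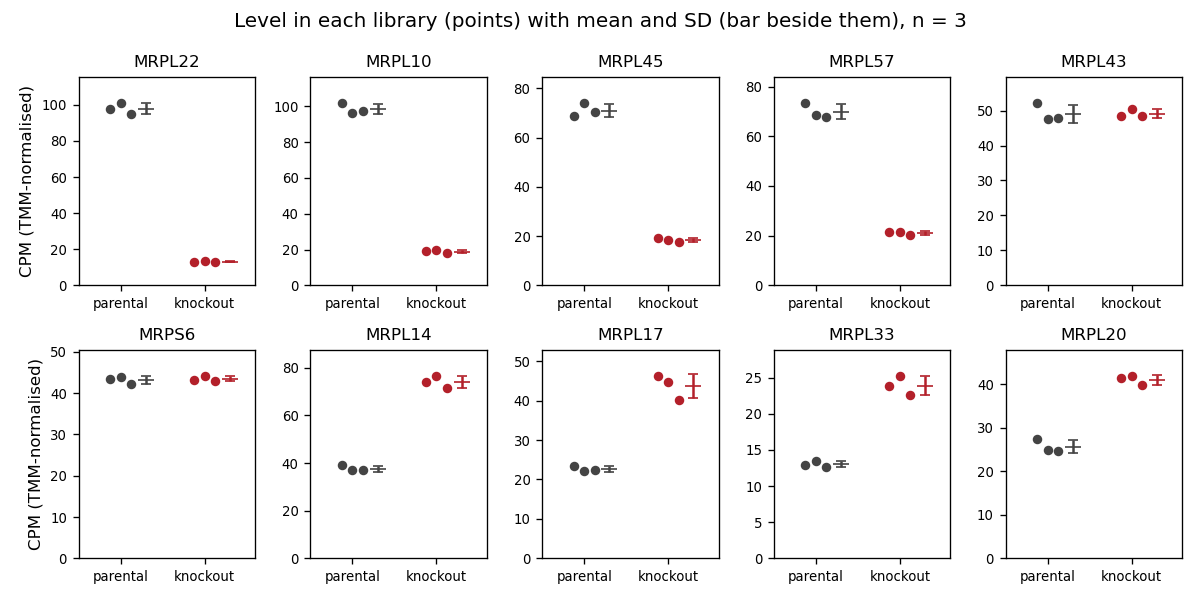
CPM after TMM scaling (vertical axis, from 0) in each library of 10 genes: the 4 lowest, 2 near 0 and the 4 highest by log2 fold change; points are libraries, the bar beside them mean and SD (n = 3). MRPL22 stands at 95.1 to 100.9 CPM in parental and 13.0 to 13.3 in knockout libraries, and MRPL14 at 36.9 to 39.1 and 71.4 to 76.5.

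The 7 of the 79 genes that rose all encode large subunit proteins with a bacterial counterpart. MRPL14, at the face that meets the small subunit and the docking site of the assembly factor MALSU1, lies on chromosome 6 from 44113454 to 44127457. It stood at 39.1, 37.0 and 36.9 CPM in the parental group and at 74.1, 76.5 and 71.4 CPM in the knockout group (0.98, SE 0.050, edgeR adjusted p = 5.92e-14). MRPL17 stood at 23.5, 22.1 and 22.3 CPM in the parental group and at 46.2, 44.8 and 40.2 CPM in the knockout group (0.95, SE 0.057). MRPL33 stood at 12.9, 13.5 and 12.7 CPM in the parental group and at 23.9, 25.2 and 22.6 CPM in the knockout group (0.88, SE 0.056). In these 3 genes the lowest knockout library lay well above the highest parental one. MRPL33 shares 21.1% of its annotated exonic bases with BABAM2 on the same strand, and BABAM2 had a log2 fold change of 1.21, so reads of the pair may not be told apart.

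MRPL20 rose by 0.68 (SE 0.053) and MRPL36 by 0.52 (SE 0.052). MRPL13 was the weakest of the 7 (0.14, SE 0.059, edgeR adjusted p = 0.039), and stood at -0.29 with total counts only and -0.065 with upper quartile factors. Without parental replicate 3, knockout replicate 1 or knockout replicate 2 it did not pass. MRPL14, MRPL17, MRPL33 and MRPL20 were called higher under every one of the 14 other settings tried, and MRPL13, MRPL23 and MRPL36 were not. MRPL18 (0.079, SE 0.047) did not pass, but passed as higher without parental replicate 1, parental replicate 2 or knockout replicate 3, and as lower with total counts only and upper quartile factors. The other large subunit genes that did not pass were MRPS18A (-0.10, SE 0.049), MRPL15 (-0.076, SE 0.049), MRPL52 (-0.074, SE 0.051), MRPL34 (-0.062, SE 0.051) and MRPL43 (-0.0011, SE 0.051). All 5 passed as lower with total counts only and with upper quartile factors, and MRPL15 also with at least 100 counts in 3 libraries.

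Symbols and places in the ribosome differ for a few genes. Of MRPS18A, MRPS18B and MRPS18C, which share a name, MRPS18A sits in the large subunit. The classes used above put MRPS18C with the bacterial counterparts and MRPS18A and MRPS18B with the mitochondria-specific proteins, despite the shared name. MRPS18B stood at 60.9, 61.0 and 58.8 CPM in the parental group and at 34.8, 36.1 and 35.7 CPM in the knockout group (-0.76, SE 0.048). MRPS18C stood at 16.3, 17.0 and 16.1 CPM in the parental group and at 10.5, 10.6 and 9.99 CPM in the knockout group (-0.67, SE 0.057). MRPS18A stood at 57.8, 53.6 and 53.9 CPM in the parental group and at 51.9, 51.9 and 50.4 CPM in the knockout group; these groups do not overlap, but the difference did not pass (edgeR adjusted p = 0.0715). It passed as lower with no filter on low counts (edgeR adjusted p = 0.0156), with at least 100 counts in 3 libraries (0.0202), with total counts only (5.76e-08) and with upper quartile factors (1.96e-05). MRPS30, also a large subunit protein, changed by -0.63 (SE 0.054). MRPS36, known as a component of the 2-oxoglutarate dehydrogenase complex and counted in neither subunit, stood at 15.3, 16.1 and 15.1 CPM in the parental group and at 8.84, 9.29 and 8.74 CPM in the knockout group (-0.79, SE 0.058).

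Subunits of the same ribosome that carry other symbols moved in both directions, as did all tested genes (37.5% lower, 36.3% higher). Of 4, PTCD3 (-0.59, SE 0.049), GADD45GIP1 (-0.35, SE 0.058) and CHCHD1 (-0.25, SE 0.055) fell. AURKAIP1, a small subunit protein also known for binding Aurora kinase A, rose. It stood at 40.3, 35.2 and 35.7 CPM in the parental group and at 82.1, 84.0 and 80.4 CPM in the knockout group (1.15, SE 0.055, edgeR adjusted p = 1.96e-14), a larger rise than that of any of the 79.

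Genes that build and serve the ribosome were described by count. Of 28 genes for ribosome assembly and modification of its RNA 17 fell, 5 rose and 6 did not pass (median -0.30). That is 60.7% lower and 17.9% higher, against 37.5% and 36.3% of all tested genes. C1QBP, a matrix protein needed for mitochondrial translation, stood at 339.0, 343.4 and 329.0 CPM in the parental group and at 93.7, 94.3 and 90.9 CPM in the knockout group (-1.86, SE 0.048). MRM3, a methyltransferase of the large ribosomal RNA, changed by -1.53 (SE 0.054), ERAL1, a chaperone of the small ribosomal RNA, by -1.32 (SE 0.048), and MTERF4, which brings a methyltransferase to the ribosome, by -1.10 (SE 0.049). With total counts only, 26 of the 28 fell and 0 rose, where 52.5% of all tested genes fell and 25.9% rose.

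Of 17 translation factors and regulators 14 fell, 2 rose and 1 did not pass (median -0.53). LRPPRC, which stabilises mitochondrial messenger RNA, changed by -1.23 (SE 0.051), the initiation factor MTIF2 by -1.11 (SE 0.051), the elongation factor TUFM by -1.08 (SE 0.050) and MTFMT, which formylates the initiator tRNA, by -0.84 (SE 0.055). Of 17 mitochondrial aminoacyl-tRNA synthetases, the enzymes that load tRNAs, 14 fell, 2 rose and 1 did not pass (median -0.63). The largest changes were in CARS2 (-1.29, SE 0.052), MARS2 (-1.23, SE 0.066), SARS2 (-1.22, SE 0.055) and TARS2 (-1.21, SE 0.049). In both lists of 17 genes 82.4% fell and 11.8% rose, against 37.5% and 36.3% of all tested genes.

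Of 16 genes for mitochondrial RNA synthesis and maturation 11 fell, 3 rose and 2 did not pass (median -0.39). That is 68.8% lower and 18.8% higher, against 37.5% and 36.3% of all tested genes. The transcription termination factor MTERF1 changed by -1.63 (SE 0.060), the elongation factor TEFM by -1.05 (SE 0.073), TFAM, which packages mitochondrial DNA and starts its transcription, by -0.96 (SE 0.059) and the RNA helicase SUPV3L1 by -0.65 (SE 0.052). Of 15 regulators of mitochondrial biogenesis 14 were tested: 9 fell (64.3%), 4 rose (28.6%, below the share of all tested genes) and 1 did not pass (median -0.44). The orphan nuclear receptor ESRRB stood at 31.8, 30.0 and 30.8 CPM in the parental group and at 0.407, 0.378 and 0.399 CPM in the knockout group (-6.29, SE 0.077). MYCN changed by -4.93 (SE 0.18), the coactivator PPARGC1B by -3.53 (SE 0.11) and ESRRA by -1.11 (SE 0.054). The 4 that rose were TFE3 (1.04), PPRC1 (0.54), SP1 (0.13) and YY1 (0.30), whose letters are also counted above. NRF1 (-0.62, SE 0.050) and GABPA (-0.51, SE 0.056), named after their values were seen because their sites are described above, fell. MYC, named likewise, held 115.1 to 123.0 CPM in parental and 117.3 to 117.7 in knockout libraries and did not pass, but passed as lower with total counts only (-0.43, edgeR adjusted p = 2.7e-07) and with upper quartile factors (-0.21, edgeR adjusted p = 0.000381).

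**Figure D3:**
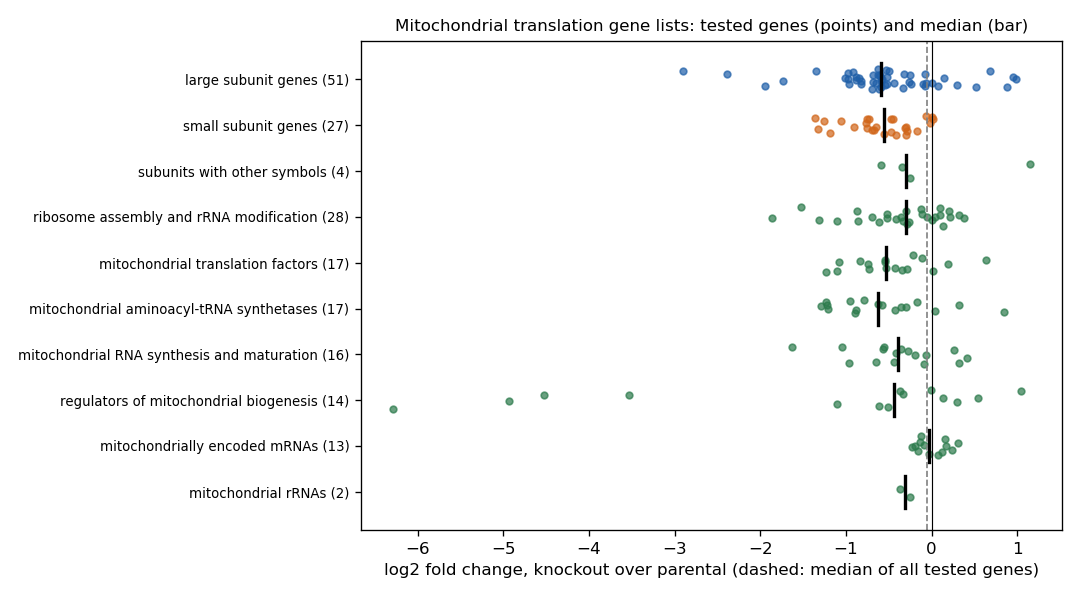
Log2 fold change (horizontal axis) of each tested gene in the subunit and pathway lists, with the list's median as a bar; the dashed line is the median of all tested genes. The medians of the nuclear lists drawn lie between -0.63 and -0.30, and that of the 13 mitochondrially encoded messenger RNAs at -0.031.

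The RNAs that this ribosome contains or translates come from mitochondrial DNA. The ribosomal RNA MT-RNR2 stood at 6515.3, 6310.1 and 6541.8 CPM in the parental group and at 4667.6, 5055.6 and 5220.1 CPM in the knockout group (-0.37, SE 0.050), and MT-RNR1 changed by -0.25 (SE 0.046). Libraries were enriched with oligo-dT, so these values cover the ribosomal RNA that was captured and not its whole amount. Of the 13 messenger RNAs 3 fell, 3 rose and 7 did not pass, and each changed by at most 0.31. The share was 23.1% in each direction, less than the 37.5% and 36.3% of all tested genes. These 13 made up 3.04%, 2.85% and 2.96% of counts in parental and 1.96%, 2.25% and 2.59% in knockout libraries, a wider spread in the knockout group. The shares are without TMM scaling and cannot be set beside the fold changes. MT-CYB (0.31, SE 0.10) and MT-ND6 (0.24, SE 0.059) rose, MT-CO3 (-0.23, SE 0.087) and MT-ND3 (-0.19, SE 0.051) fell, and with total counts only MT-CYB stood at -0.11 and MT-ND6 at -0.18. The calls depend on single libraries: without any 1 parental library 1 gene was lower in place of 3.

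For comparison, 2 other large sets of housekeeping genes were counted in the same way, as lists taken by name after the results were known. Of 82 tested cytosolic ribosomal protein genes 62 fell and 11 rose (median -0.37), and of 78 nuclear genes of oxidative phosphorylation 62 fell and 10 rose (median -0.44). Without TMM scaling, cytosolic ribosomal protein genes made up 4.70%, 4.56% and 4.49% of counts in parental and 2.62%, 2.69% and 2.61% in knockout libraries. The share of lower genes was 75.6% and 79.5% in these sets, 78.5% among the 79 and 37.5% among all tested genes. No difference between the sets was tested.

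Some of the 79 start back to back with another gene, within 1000 bases on opposite strands. Whether the DNA between the starts serves both genes was not tested. Such a coding partner was tested for 17. Of the 13 of them that fell, 8 had a partner that fell, 5 a partner that did not pass and 0 a partner that rose. Of all tested genes 37.5% fell and 36.3% rose. Partners also fell beside members that did not: TCP1 (-0.38) beside MRPL18, SLC7A7 (-0.31) beside MRPL52 and MRPL46 (-0.60) beside MRPS11. The partner of MRPL36 did not pass. These counts therefore do not show that partners follow members. MRPL57 and SKA3, a kinetochore gene 43 bases away, changed by -1.73 and -1.75 (SE 0.053 and 0.052). MRPL10 and LRRC46, 93 bases away, changed by -2.39 and -2.94, with LRRC46 at a mean of 3.93 and 0.511 CPM. Other pairs parted: MRPL27 changed by -0.33 and its partner EME1, a DNA repair nuclease subunit, by -1.61, and MRPL36 rose by 0.52 while NDUFS6 stood at -0.11 and did not pass. MRPL46 and MRPS11 are both members and start 34 bases apart, and MRPL46 fell by 0.60 on the log2 scale while MRPS11 stood at 0.017. The promoter printed for MRPL57 is the gap to SKA3. The pairs named here were chosen after their values were seen.

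**Figure D4:**
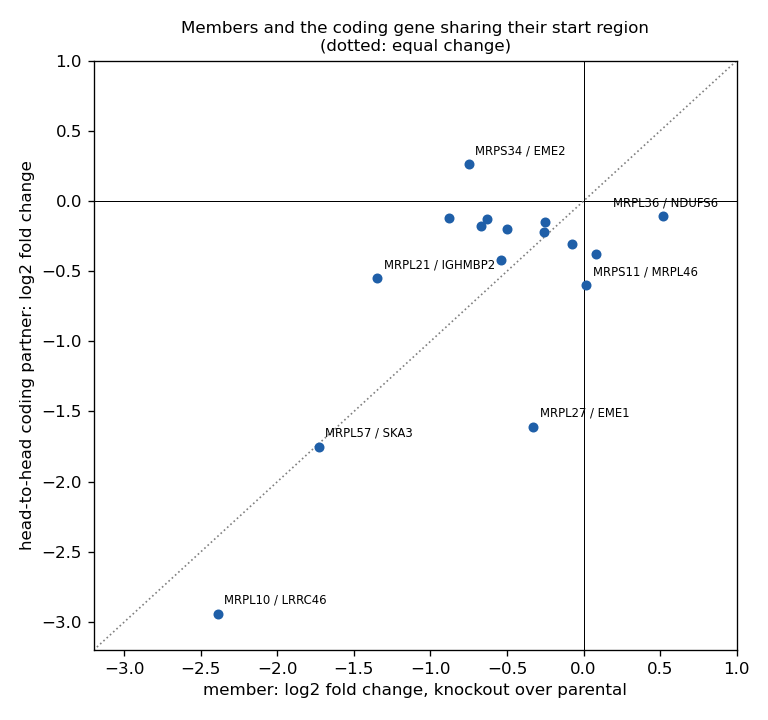
Log2 fold change of each member (horizontal axis) against that of its head-to-head coding partner (vertical axis), 1 point a pair; MRPL46 and MRPS11 form 1 pair and are drawn once. MRPL57 with SKA3 lies close to the dotted line of equal change, and MRPL27 with EME1 lies well below it.

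Lower members were found on most chromosomes that hold any. Of the 79 genes 70 lay below the median of the tested genes of their own chromosome. The median difference was -0.57 over these 70 and -0.53 over all 79. On chromosome 17 all 8 fell (median -0.88), where the other tested genes had a median of -0.42, the lowest of the chromosomes that hold members. On chromosome 13 both fell (median -1.54, other genes -0.41). Of the other tested genes 48.5% fell on chromosome 17 and 52.2% on chromosome 13. On chromosome 6, 2 fell, 1 rose and 3 did not pass, where 28.4% of the other tested genes fell and 46.7% rose. On chromosome 8 none of 3 fell, where 36.1% of the others fell and 39.5% rose. Members on each chromosome are few, and no difference between chromosomes was tested. Chromosome copy number in the groups was not measured.

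Reads of neighbours and copies could enter these counts. In the annotation 42 of the 79 share at least 1 exonic base with another gene, and 12 share over 20%, among them MRPL12, MRPL33, MRPL43 and MRPS18A; the use of strand in counting is not given in the sources used here. Of 83 rows named as pseudogenes of 37 members, 3 held over 1% of the counts of their parent gene: MRPS31P5 (29.6%), MRPL45P2 (4.39%) and MRPS31P4 (4.23%). The part of copies in the results was not tested.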

How the data were processed

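The authors deposited 1 table of estimated counts per gene for 6 libraries. The submitters' processing notes name kallisto 0.48.0 and hg38, and, per the labels' protocols, RNA was enriched with oligo-dT. For annotation, gene-level summing and strand, the setting was not given in the sources used here. Because kallisto divides ambiguous reads among transcripts, close copies are uncertain.

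Counts were rounded and tested with edgeR 4.0.16 in R 4.3.3 (filterByExpr with a minimum count of 10 and a total of 15, TMM, robust quasi-likelihood fit of group over all 6 libraries, Benjamini-Hochberg over 28485 genes, threshold 0.05). The biological coefficient of variation was 7.53%. Scripts were tested on simulated data. Positions come from GENCODE 29 (GRCh38), promoters from RefSeq.

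The members and lists were chosen with earlier results of these data known. Named were the 12 lowest and 8 highest members, those higher or not passed, the stalk genes, DAP3, MRPS18A to C, MRPS30, 3 nearest the median, and up to 4 called genes of at least 1 CPM with the largest change from each list. Alternatives were 2 other tools (DESeq2 1.42.0, limma 3.58.1), 3 scalings, 2 filters, a replicate block and leaving out each library. Replicates differed by more than counting noise. Same-numbered libraries had correlations of deviations of -0.207, -0.0615 and 0.0259, so numbers were not taken as pairs.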

Additional observations from a re-analysis of the deposited data

How the results depend on the processing

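Of the 62 lower members, 61 were called lower under each of the 14 alternatives, the exception being MRPS24. With total counts only, 4 members were higher (all large subunit), the members' median was -1.01, and the higher counts were 0 for assembly, 1 for translation factors, 1 for synthetases, 0 for RNA synthesis and 2 for regulators; 26 assembly genes and 10 mitochondrial messenger RNAs were lower and 0 of the latter higher. Of all tested genes 52.5% were lower and 25.9% higher in this fit. There MRPL13 stood at -0.29, MRPL18 at -0.34, MRPL23 at -0.12, MRPS11 at -0.41, MRPS6 at -0.41, MT-CYB at -0.11 and MT-ND6 at -0.18. With upper quartile factors the members' median was -0.79, 2 assembly genes and 1 translation factor were higher, 6 mitochondrial messenger RNAs were lower and 0 higher, and MRPL13, MRPL18, MRPS11 and MRPS6 stood at -0.065, -0.12, -0.19 and -0.19. MRPL43 and MYC, near 0 in the TMM fit, passed as lower with total counts only (-0.42 and -0.43) and with upper quartile factors (both -0.21). With upper quartile factors 44.9% of all tested genes were lower and 30.5% higher. With limma-voom 1 mitochondrial messenger RNA was lower. Values near 0 changed sign: MRPL43, MRPS28 and MYC were 0.024, 0.011 and 0.019 with DESeq2 size factors and with the DESeq2 Wald test, and MRPS11 and MRPS6 were -0.011 and -0.018 with no filter and -0.0035 and -0.011 with at least 100 counts in 3 libraries. Leaving out 1 library at a time gave 1 to 3 lower and 1 to 6 higher mitochondrial messenger RNAs, a members' median from -0.59 to -0.53, MRPL43 from -0.010 to 0.065, MRPS28 from -0.041 to 0.031 and MYC from -0.010 to 0.047. The replicate block gave 62 lower and 6 higher members, with MRPL13 at an adjusted p of 0.0739 by edgeR; the numbers may not pair libraries, and 0 of 6 libraries correlated best with their own number. For changes other than those set by scaling or fewer samples, the cause was not tested. With 3 libraries a group, differences within a few SE of 0 are not resolved.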
